A study of Mus musculus with 12 samples.

Results

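The transcripts of 8 enzymes that draw glucose away from glycolysis, Sord, Akr1b3, Gfpt1, Gfpt2, Gnpnat1, Pgm3, Uap1 and Ogt, were followed in mouse cardiomyocyte RNA. They were listed by name, out of 55335 gene identifiers in the count files, and each of the 8 had enough counts to be among the 16932 genes tested. The genes were chosen by pathway but selected on measured values too, with the fold changes of ApoE KO HFD against Wt CD known, so for all 8 genes that comparison is given as a description. The other comparisons against Wt CD reuse its libraries, so their counts among the 8 genes are descriptions too.

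The mice were males of 7 to 8 weeks that were then kept on their diet for 7 weeks. The ApoE KO HFD group carried the Apoe tm1Unc knockout allele on a C57BL/6J-related background (B6.129P2) and ate a Western-type diet with 0.21% cholesterol. The Wt HFD group were C57BL/6J mice on the same Western-type diet, the ApoE KO CD group were knockouts on standard chow, and the Wt CD group were C57BL/6J mice on chow. The knockout is present in every cell of the body, so it is not a cardiomyocyte model, and the labels do not say whether animals were pooled. Each group had 3 libraries, and Wt HFD replicate 3 was left out, which leaves 11 libraries.

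In the polyol pathway aldose reductase reduces glucose to sorbitol at the expense of NADPH, and sorbitol dehydrogenase oxidises sorbitol to fructose. In the hexosamine pathway glutamine:fructose phosphate amidotransferase makes glucosamine phosphate, which is acetylated, rearranged and coupled to UTP to give UDP-GlcNAc. That nucleotide sugar feeds glycan synthesis, and the enzyme OGT uses it to place O-GlcNAc on nuclear and cytosolic proteins, heart muscle proteins among them. In mouse heart the unfolded protein response factor XBP1 is known to induce enzymes of the hexosamine route.

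The 11 libraries held 22130323 to 46424614 counts on genes, of which 51.5% to 71.3% came from the mitochondrial genome, so 9340449 to 16412505 counts were left on nuclear genes. Where exons of coding and non-coding genes overlap on opposite strands (1140 pairs), the non-coding partner took 73.3% of the pairs' counts in Wt HFD replicate 3 (95% Wilson interval 73.1% to 73.5%). It held 0.541% to 0.901% in the other libraries. That library had 1347110 counts in all, and its count column carries the same name as the column of ApoE KO CD replicate 1. Apoe, the targeted gene, averaged 2.71 ± 0.668 CPM (counts per 1000000, TMM-scaled; SD, n = 3) in the libraries labelled ApoE KO HFD and 13.7 ± 7.42 (n = 2) in those labelled Wt HFD. It averaged 18.7 ± 10.2 CPM in the libraries labelled ApoE KO CD and 2.88 ± 0.745 in those labelled Wt CD (n = 3 each), so on chow it went against the genotype labels. Group names below are the labels, and every direction that uses a chow group is subject to this, diet comparisons and the interaction included. Markers of cardiomyocytes in general (Myh6, Tnnt2, Actc1, Tnni3, Ryr2 and Pln) were present in every library and summed to 36400 to 49200 CPM. Macrophage markers summed to 4.74 to 26.6 CPM and fibroblast markers to 8.67 to 20.5 CPM. Atrial cardiomyocyte markers summed to 23.3 to 92.8 CPM in ApoE KO HFD, 13.5 and 199 in Wt HFD, 113 to 132 in ApoE KO CD and 82.5 to 140 in Wt CD, so they were lower in ApoE KO HFD than in ApoE KO CD without overlap. Their part in the diet differences and ratios was not tested.

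Per kilobase of exon, Sord was the most abundant of the 8 transcripts, at 18.6 ± 3.92 CPM per kilobase (SD over 11 libraries). Ogt followed with 4.79 ± 0.601, Akr1b3 with 3.23 ± 0.609, Uap1 with 2.30 ± 0.273 and Gfpt1 with 1.09 ± 0.226 CPM per kilobase. Lower were Pgm3 at 0.491 ± 0.134, Gnpnat1 at 0.401 ± 0.0754 and Gfpt2 at 0.185 ± 0.0595 CPM per kilobase. In each library Sord stood above Ogt, Ogt above Akr1b3, Akr1b3 above Uap1, Uap1 above Gfpt1, Gfpt1 above Pgm3 and Gnpnat1 above Gfpt2. The exception was the pair Pgm3 and Gnpnat1, where Pgm3 was the higher in 9 of 11 libraries. Of the 2 amidotransferase genes Gfpt1 was therefore the main one in these cells, and Gfpt2 had only 14 to 61 counts per library. The length used is that of all annotated exons merged (2352 bases for Sord, 10072 for Gfpt1), so genes with long alternative exons are understated on this scale.

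**Figure D1:**
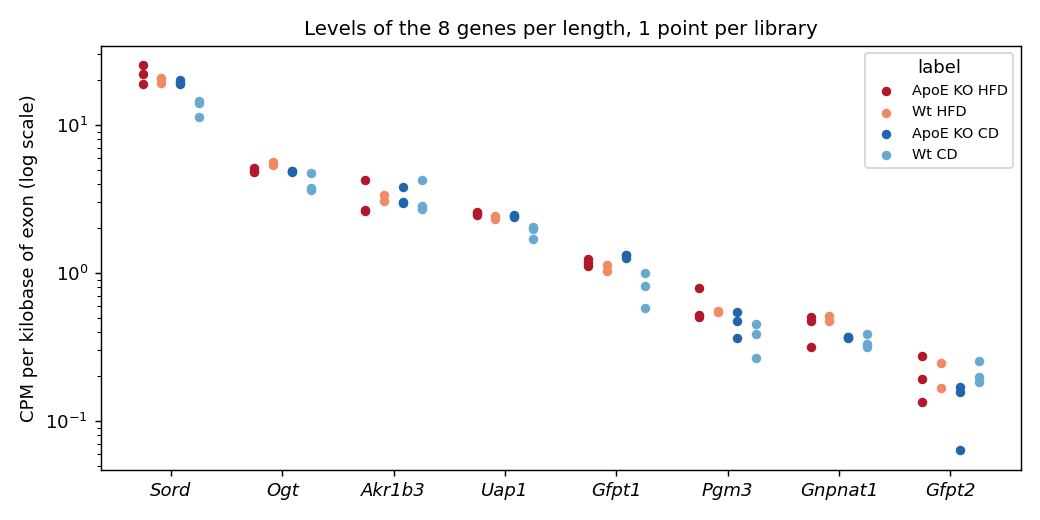
TMM-scaled CPM per kilobase of merged exon (log axis) for the 8 genes, 1 point per library, coloured by label. Sord lies highest at a mean of 18.6 and Gfpt2 lowest at 0.185 CPM per kilobase, and the Wt CD points of Sord, Uap1, Gfpt1 and Ogt lie below the other labels.

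Sord, which encodes sorbitol dehydrogenase (ENSMUSG00000027227, GRCm38 chromosome 2, 122234749 to 122265340, plus strand), was high in 3 labels and low in Wt CD. It had 44.7, 59.6 and 52.1 CPM in the ApoE KO HFD libraries, 48.6 and 44.9 in Wt HFD, 47.7, 45.2 and 44.6 in ApoE KO CD, and 33.3, 34.4 and 26.7 in Wt CD. Every Wt CD library lay below each of the other 8, and the other 3 labels overlapped one another. The fitted log2 fold change of ApoE KO HFD against Wt CD was 0.73 (SE 0.14), or 1.66-fold. Against the same Wt CD libraries it was 0.57 (SE 0.15, edgeR quasi-likelihood adjusted p = 0.165) in Wt HFD and 0.54 (SE 0.14, adjusted p = 0.0733) in ApoE KO CD, so neither passed the threshold of 0.05. DESeq2 called the ApoE KO CD value (0.53, adjusted p = 0.0154), and edgeR did so without Wt CD replicate 2 (0.61, adjusted p = 0.0118). EdgeR called the Wt HFD value too without Wt CD replicate 2 (0.64, adjusted p = 0.0216) and with no filter on low counts (0.69, adjusted p = 0.0129). With only the groups compared in the fit, edgeR called neither (adjusted p = 0.686 in Wt HFD and 0.189 in ApoE KO CD). With replicate number as a block it also called neither (adjusted p = 0.367 and 0.114). Over all genes, ApoE KO CD against Wt CD had 86 edgeR calls, 434 with DESeq2 and 1801 without Wt CD replicate 2. Wt HFD against Wt CD had 35 edgeR calls, 272 with no filter and 1019 without Wt CD replicate 2. Among the labels other than Wt CD no difference passed: ApoE KO HFD against ApoE KO CD gave 0.19 (95% interval −0.10 to 0.47, adjusted p = 1) and ApoE KO HFD against Wt HFD 0.16 (−0.16 to 0.48, adjusted p = 1).

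Akr1b3, the aldose reductase gene that supplies the sorbitol (ENSMUSG00000001642, chromosome 6, 34302434 to 34317478, minus strand), did not follow Sord. Its levels were 35.7, 22.0 and 22.5 CPM in ApoE KO HFD, 25.7 and 28.1 in Wt HFD, 24.8, 25.4 and 32.1 in ApoE KO CD, and 22.6, 35.5 and 23.7 in Wt CD. In each label with 3 libraries, 1 library stood well above the other two, and all labels overlapped. The group means lay between 26.7 and 27.4 CPM, and the fitted log2 differences of the 5 group comparisons between −0.04 and 0.01. Over the 5 comparisons their 95% intervals reached from −0.48 at the lowest to 0.45 at the highest, and each included 0. Differences within the interval of a comparison were not excluded for it. The 3 libraries with the most Akr1b3 were ApoE KO HFD replicate 1, ApoE KO CD replicate 3 and Wt CD replicate 2, and these had the 3 lowest mitochondrial shares, 55.4%, 51.5% and 57.4%, against 57.8% or more elsewhere. Wt HFD replicates 2 and 1, which came next in Akr1b3, had shares of 64.7% and 66.8%. ApoE KO CD replicate 2, at 57.8%, had 25.4 CPM of Akr1b3. The part of the mitochondrial share in the spread of Akr1b3 was not tested.

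The ratio of Sord to Akr1b3 within a library does not depend on scaling. It was 1.25, 2.71 and 2.32 in ApoE KO HFD, 1.89 and 1.60 in Wt HFD, 1.93, 1.78 and 1.39 in ApoE KO CD, and 1.47, 0.969 and 1.13 in Wt CD. The labels overlapped, since ApoE KO HFD replicate 1 and ApoE KO CD replicate 3 lay within the Wt CD range. Between the 5 HFD and the 6 CD libraries it differed by 0.42 on the log2 scale (two-sided exact permutation p = 0.13; 0.26 after Benjamini-Hochberg adjustment over 4 ratios). With any 1 library left out the difference was 0.29 to 0.57. The largest was without ApoE KO HFD replicate 1 (exact permutation p = 0.0476, unadjusted), and every other omission gave an exact p of 0.0873 or more.

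The hexosamine route starts with Gfpt1, the rate-limiting amidotransferase (ENSMUSG00000029992, chromosome 6, 87042846 to 87092197, plus strand). Gfpt1 had 12.5, 11.7 and 11.3 CPM in ApoE KO HFD, 10.4 and 11.4 in Wt HFD, 13.4, 13.3 and 12.7 in ApoE KO CD, and 8.25, 10.1 and 5.86 in Wt CD. The Wt CD libraries were the 3 lowest and also the most spread, and the 3 ApoE KO CD libraries were the 3 highest. In ApoE KO CD against Wt CD the log2 fold change was 0.70 (SE 0.17, 1.63-fold, edgeR adjusted p = 0.0628), just short of the threshold. DESeq2 gave 0.69 (adjusted p = 0.00851), and without Wt CD replicate 2 edgeR gave 0.89 (adjusted p = 0.00261). Those fits called 434 and 1801 of all genes, against 86 in the reported fit. EdgeR did not call Gfpt1 with only the groups compared (0.68, adjusted p = 0.197) or with the replicate block (0.73, adjusted p = 0.0755). In Wt HFD against Wt CD the change was 0.44 (SE 0.18, adjusted p = 0.322), or 0.63 (edgeR adjusted p = 0.0341) without Wt CD replicate 2, and in ApoE KO HFD against Wt CD 0.55 (SE 0.17). In ApoE KO HFD against ApoE KO CD it was −0.15 (95% interval −0.49 to 0.19, adjusted p = 1), although the groups did not overlap on TMM-scaled CPM.

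Gfpt2, the second amidotransferase gene (ENSMUSG00000020363, chromosome 11), was near 1 CPM throughout. It had 1.08, 0.746 and 1.53 CPM in ApoE KO HFD, 1.37 and 0.935 in Wt HFD, 0.872, 0.954 and 0.354 in ApoE KO CD, and 1.11, 1.02 and 1.43 in Wt CD. The ApoE KO CD libraries were all below Wt CD (log2 fold change −0.73, SE 0.41, edgeR adjusted p = 0.386), opposite in sign to Gfpt1, and the interval of −1.58 to 0.12 includes no change. ApoE KO CD replicate 3, the library lowest in Gfpt2, also had the lowest sum of 8 fibroblast markers, 8.67 CPM. Wt CD replicate 3, with the next lowest sum, 9.81 CPM, had 1.43 CPM of Gfpt2. These levels of Gfpt2 rest on only 14 to 61 counts per library. The part of fibroblasts in the Gfpt2 counts was not tested. In bulk RNA, fewer cells of a type and less RNA per cell cannot be told apart.

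Next in the route are Gnpnat1, which acetylates glucosamine phosphate (chromosome 14, minus strand), and Pgm3, the mutase that moves the phosphate (chromosome 9, minus strand). Gnpnat1 had 2.39, 2.24 and 1.5 CPM in ApoE KO HFD, 2.44 and 2.23 in Wt HFD, 1.72, 1.75 and 1.74 in ApoE KO CD, and 1.49, 1.57 and 1.84 in Wt CD. Both Wt HFD libraries exceeded the Wt CD range, with a log2 fold change of 0.51 (SE 0.28, edgeR adjusted p = 0.448), while 2 ApoE KO HFD libraries lay above that range and 1 within it. Pgm3 had 3.54, 2.35 and 2.25 CPM in ApoE KO HFD, 2.49 and 2.45 in Wt HFD, 2.45, 2.11 and 1.64 in ApoE KO CD, and 1.20, 1.73 and 2.03 in Wt CD. All 5 HFD libraries lay above the Wt CD libraries, by a log2 fold change of 0.73 (SE 0.27) in ApoE KO HFD and 0.59 (SE 0.30, adjusted p = 0.421) in Wt HFD. On plain CPM this failed for ApoE KO HFD replicate 2 (1.84), which lay below the highest Wt CD library (1.94). The ApoE KO CD libraries overlapped both ApoE KO HFD (log2 fold change of HFD against CD 0.40, 95% interval −0.15 to 0.96, adjusted p = 1) and Wt CD. Both genes are covered by few reads, 38 to 148 counts per library, which widens these intervals. Gnpnat1 shares 3878 exon bases with Styx and Pgm3 shares 1270 with Dop1a, each on the opposite strand.

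Uap1, which couples GlcNAc phosphate to UTP and so makes UDP-GlcNAc (ENSMUSG00000026670, chromosome 1, 170141938 to 170174957, minus strand), varied little outside Wt CD. It had 10.3, 10.2 and 9.92 CPM in ApoE KO HFD, 9.70 and 9.26 in Wt HFD, 9.54, 9.82 and 9.71 in ApoE KO CD, and 7.94, 6.83 and 8.16 in Wt CD. The 3 Wt CD libraries were again the lowest, and the ApoE KO HFD libraries were the 3 highest of all. The log2 fold change was 0.41 (SE 0.14) in ApoE KO HFD, 0.31 (SE 0.15, edgeR adjusted p = 0.403) in Wt HFD and 0.34 (SE 0.14, adjusted p = 0.241) in ApoE KO CD, each against Wt CD. ApoE KO HFD and ApoE KO CD differed by 0.06 (95% interval −0.22 to 0.35, adjusted p = 1) in spite of ranges that did not overlap.

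Ogt, the O-GlcNAc transferase gene (ENSMUSG00000034160, chromosome X, 101640060 to 101684351, plus strand), completes the route. It had 41.3, 39.6 and 38.7 CPM in ApoE KO HFD, 45.3 and 43.3 in Wt HFD, 38.9, 39.4 and 39.6 in ApoE KO CD, and 30.2, 37.9 and 29.4 in Wt CD. The Wt HFD libraries were the highest and the Wt CD libraries the lowest, with Wt CD replicate 2 close to the rest. The log2 fold change was 0.45 (SE 0.14, edgeR adjusted p = 0.213) in Wt HFD, 0.27 (SE 0.12, adjusted p = 0.291) in ApoE KO CD and 0.30 (SE 0.12) in ApoE KO HFD, each against Wt CD. Without Wt CD replicate 2 edgeR called the Wt HFD value (0.57, adjusted p = 0.0142) and the ApoE KO CD value (0.40, adjusted p = 0.0341). That fit called 1019 and 1801 of all genes in these comparisons. DESeq2 called neither value (adjusted p = 0.0933 and 0.233), nor did edgeR with only the groups compared (adjusted p = 0.724 and 0.493). ApoE KO HFD and ApoE KO CD differed by 0.02 (95% interval −0.24 to 0.28, adjusted p = 1).

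**Figure D2:**
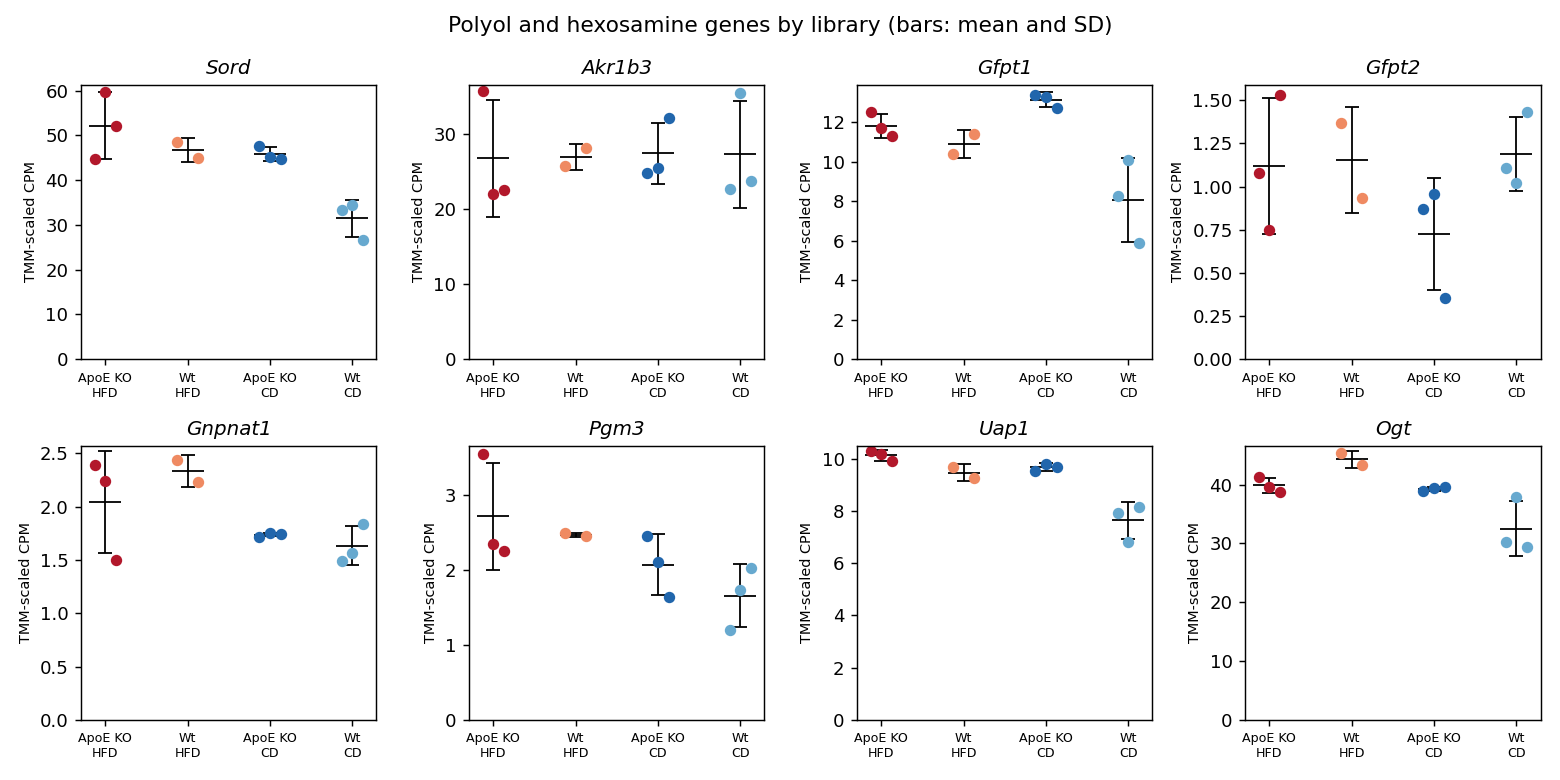
TMM-scaled CPM of each gene (vertical axes from 0) in the 11 libraries by label, with the mean and SD of each label as bars. The Wt CD points of Sord (26.7 to 34.4 CPM), Gfpt1 (5.86 to 10.1), Uap1 (6.83 to 8.16) and Ogt (29.4 to 37.9) lie below all other points, and those of Akr1b3 and Gfpt2 do not.

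Set against the Wt CD libraries, 4 of the 8 genes thus had every Wt CD library below the other 8 libraries (3.95% of all genes tested did). The pattern includes ApoE KO HFD against Wt CD, whose values were known when the genes were chosen, so it is a description and nothing is read from the count. On plain CPM, without TMM scaling, it held for Sord and Uap1, 2 of the 8, against 1.22% of all genes, and Gfpt1 and Ogt overlapped. These 3 comparisons share the Wt CD libraries and are not separate evidence. In the fit of ApoE KO HFD against Wt CD, 1 of the 8 genes, Sord, was called, where 0.154% of all genes were; 5 had an unadjusted p under 0.05 (14.2% of all genes) and 5 were higher without overlap (8.42%), with 0 lower (7.22%). This comparison entered the choice of genes, so nothing is read from those counts. The call of Sord was lost in 8 of the 11 fits that left out 1 library, with log2 fold changes of 0.62 to 0.83 over the 11 fits, and was kept without Wt CD replicate 2, Wt HFD replicate 1 or Wt HFD replicate 2. In it 6 of 8 genes had values above 0, with a median log2 fold change of 0.36 against −0.01 over all genes. In Wt HFD against Wt CD edgeR called 0 of the 8 (0.207% of all genes), DESeq2 0 and limma-voom 0, and 3 had an unadjusted p under 0.05, where 12.9% of all genes had one. Higher without overlap were 6 of the 8 (12.8% of all genes) and lower 0 (11.8%). The median of the 8 was 0.44 against −0.01 for all genes. In ApoE KO CD against Wt CD edgeR called 0 (0.508% of all genes), limma-voom 0 and DESeq2 2, Sord and Gfpt1. Over all genes DESeq2 called 434 in this comparison, where edgeR called 86. There 4 of 8 had an unadjusted p under 0.05 (15.9% of all genes), 4 were higher without overlap (8.92%) and 1 lower (7.67%), and the median was 0.30 against −0.01. Wt HFD and ApoE KO CD were set against the same Wt CD libraries that entered the choice of genes. Nothing is therefore read from the counts and medians of these comparisons either.

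The 6 cardiomyocyte markers summed to 45400 to 49200 CPM in Wt CD, above the 36400 to 42800 CPM of the other 8 libraries. Markers of pericytes and smooth muscle summed to 240 to 270 CPM in the other 8 libraries and 170 to 245 in Wt CD, which overlap. Endothelium markers summed to 52.7 to 141 CPM in the other 8 libraries and 55.6 to 132 in Wt CD, also overlapping. In the weighting of libraries by limma-voom the Wt CD libraries had the lowest weights, 0.372 to 0.676, against 0.743 to 2.13 for the others. The part of these in the low Sord, Gfpt1, Uap1 and Ogt of Wt CD was not tested.

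**Figure D3:**
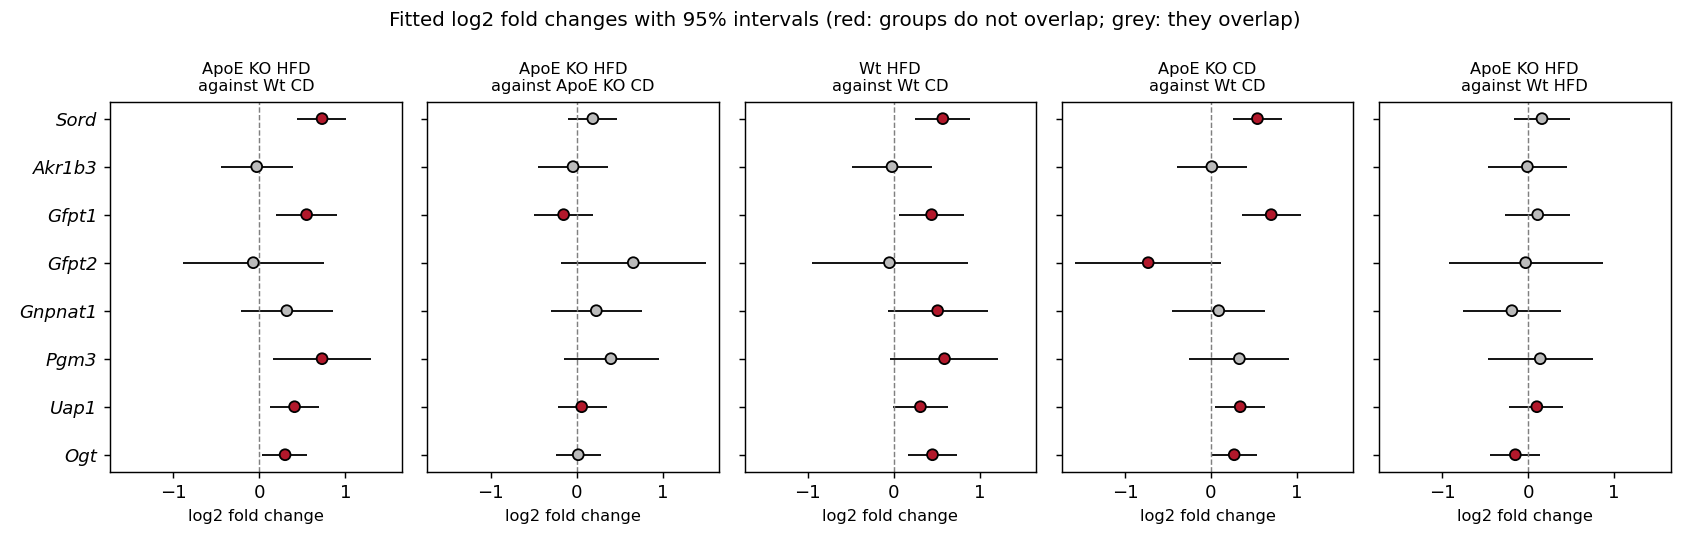
Fitted log2 fold changes of the 8 genes (points) with 95% intervals (lines) in the 5 comparisons between groups, red where the libraries of the groups do not overlap and grey where they do. Values against Wt CD reach 0.73 for Sord and Pgm3, while in ApoE KO HFD against ApoE KO CD and against Wt HFD every interval includes 0.

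The comparisons without Wt CD gave no call among the 8 genes. In ApoE KO HFD against ApoE KO CD edgeR called 0 of the 8 (0.0709% of all genes), with 0 at an unadjusted p under 0.05 (1.53% of all genes), and DESeq2 and limma-voom also called 0. Uap1 was higher without overlap (5.04% of all genes were) and Gfpt1 lower without overlap (3.99% were), 1 of the 8 in each direction. In ApoE KO HFD against Wt HFD edgeR called 0 of the 8 (0.0472% of all genes), with 0 at an unadjusted p under 0.05 (2.83% of all genes), and DESeq2 and limma-voom called 0. Uap1 was higher without overlap there (11.3% of all genes) and Ogt lower (10.3%), by −0.15 (95% interval −0.44 to 0.14). On plain CPM these groups overlapped for Gfpt1, Uap1 and Ogt alike. The interaction of diet with genotype label was −0.59 for Gfpt1 (SE 0.24, edgeR unadjusted p = 0.0259, adjusted p = 0.559) and −0.43 for Ogt (SE 0.18, unadjusted p = 0.0329, adjusted p = 0.573). For the other 6 the unadjusted p was 0.0744 or more, and none of the 8 was called by edgeR (0.219% of all genes), DESeq2 or limma-voom, with 2 at an unadjusted p under 0.05 (8.2% of all genes).

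O-GlcNAc is removed by O-GlcNAcase, whose gene is Mgea5 in the annotation used (now named Oga). Mgea5 alone was not called in either diet comparison: ApoE KO HFD against ApoE KO CD gave −0.15 (SE 0.13, edgeR adjusted p = 1) and Wt HFD against Wt CD 0.07 (SE 0.15, adjusted p = 0.871). The ratio of Ogt to Mgea5 within a library was 0.718, 0.799 and 0.776 in ApoE KO HFD, 0.910 and 0.733 in Wt HFD, 0.671, 0.693 and 0.661 in ApoE KO CD, and 0.674, 0.628 and 0.585 in Wt CD. All 5 HFD libraries lay above all 6 CD libraries, and the groups did not overlap under either genotype label. The ratio was 1.21-fold higher on the HFD, by 0.27 on the log2 scale, 0.18 under the ApoE KO label and 0.38 under the Wt label. In the reported fit neither gene was called under either label, and the interaction was called for neither. The larger fitted difference was that of Mgea5 under ApoE KO and that of Ogt under Wt. Under ApoE KO Ogt differed by 0.02 (SE 0.12) and Mgea5 by −0.15 (SE 0.13). Under Wt Ogt differed by 0.45 (SE 0.14) and Mgea5 by 0.07 (SE 0.15). An exact permutation test over libraries (two-sided) gave p = 0.00433, the smallest that 5 against 6 libraries can give, and 0.0173 after adjustment over the 4 ratios examined. The ratio was chosen after its values were seen, so this p is not an independent test. Within the ApoE KO label, 3 against 3 libraries cannot go below an exact p of 0.1. Dividing Ogt by each other tested gene in turn gave the same complete separation of HFD above CD for 0.868% of them. The difference was 0.22 to 0.30 when any 1 library was left out. Among the other ratios, Gfpt1 to Gfpt2 (log2 difference −0.14, exact p = 0.797) and Uap1 to Gnpnat1 (−0.14, exact p = 0.325) did not separate the diets. Without ApoE KO HFD replicate 3 the Uap1 to Gnpnat1 difference was −0.27 (exact p = 0.0381, unadjusted), and every other omission gave an exact p of 0.206 or more.

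**Figure D4:**
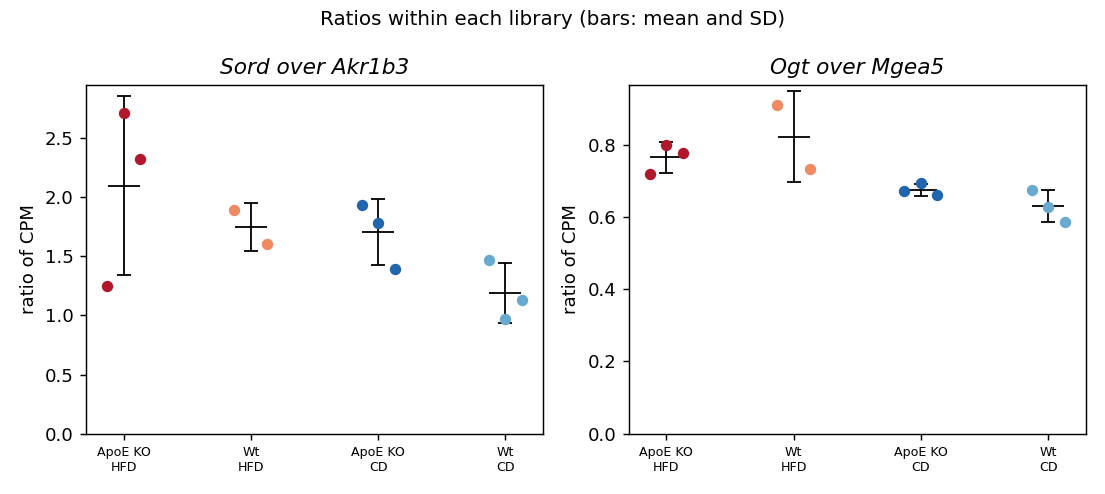
Ratio of TMM-scaled CPM of Sord to Akr1b3 (left) and of Ogt to Mgea5 (right) in each library by label, axes from 0, with mean and SD as bars. The Ogt to Mgea5 ratio is 0.718 to 0.910 in the 5 HFD libraries and 0.585 to 0.693 in the 6 CD libraries, while Sord to Akr1b3 overlaps between labels.

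Across the 11 libraries the log2 levels of Sord, Gfpt1, Uap1 and Ogt had a Pearson r between 0.56 (Uap1 and Ogt) and 0.81 (Sord and Gfpt1) in their 6 pairs. These values describe 11 libraries in which the Wt CD libraries stand apart, and they share each library's depth and scaling. Gnpnat1 and Pgm3 were paired at 0.72. Akr1b3 had −0.14 with Sord, −0.20 with Uap1, 0.28 with Gfpt1 and 0.36 with Ogt, and Gfpt2 had −0.48 with Gfpt1. Among 4826 well-expressed protein-coding genes, the closest in pattern to Sord were Arid2 (r = 0.946), Anapc5 (0.937) and Pikfyve (0.924). Those closest to Gfpt1 were Rb1cc1 (0.980), Ppm1k (0.968) and Selenot (0.967), to Ogt Papola (0.959), Cdc27 (0.955) and Kif2a (0.953), and to Uap1 Ccny (0.948), Kiz (0.917) and Fam174b (0.914). Akr1b3 was closest to other genes, Apoo (0.969), Lars (0.964) and Pmpcb (0.962). Weaker nearest patterns were found for Gnpnat1 (Ginm1, 0.877), Pgm3 (Esyt2, 0.824) and Gfpt2 (Zfp612, 0.793, then Vim, 0.768).

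Sord, Gfpt1, Uap1 and Ogt were the genes lowest in Wt CD, so the 250 bases before their RefSeq starts (GRCm38.p6) are shown, 5′ to 3′ on the gene's strand. Capitals mark GC boxes (GGGCGG or CCGCCC), the letters bound by SP1-like factors, and CCACG or CGTGG, core letters of the endoplasmic reticulum stress element.
Sord (chr2:122234589-122234838, plus strand): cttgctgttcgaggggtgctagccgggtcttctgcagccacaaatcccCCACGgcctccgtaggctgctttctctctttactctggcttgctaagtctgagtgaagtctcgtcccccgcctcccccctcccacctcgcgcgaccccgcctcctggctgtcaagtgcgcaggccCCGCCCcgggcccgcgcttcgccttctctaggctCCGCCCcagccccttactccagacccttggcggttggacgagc
Gfpt1 (chr6:87042596-87042845, plus strand): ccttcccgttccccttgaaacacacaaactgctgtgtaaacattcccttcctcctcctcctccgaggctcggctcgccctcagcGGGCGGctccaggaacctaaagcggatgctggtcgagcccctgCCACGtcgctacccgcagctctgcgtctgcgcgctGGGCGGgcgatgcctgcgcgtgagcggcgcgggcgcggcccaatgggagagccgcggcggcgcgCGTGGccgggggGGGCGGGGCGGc
Uap1 (chr1:170174965-170175214, minus strand): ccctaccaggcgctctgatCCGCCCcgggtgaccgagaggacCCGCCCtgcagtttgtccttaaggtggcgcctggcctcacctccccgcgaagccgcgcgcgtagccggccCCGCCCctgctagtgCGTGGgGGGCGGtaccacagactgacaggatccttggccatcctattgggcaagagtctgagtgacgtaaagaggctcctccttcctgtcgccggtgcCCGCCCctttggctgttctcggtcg
Ogt (chrX:101639801-101640050, plus strand): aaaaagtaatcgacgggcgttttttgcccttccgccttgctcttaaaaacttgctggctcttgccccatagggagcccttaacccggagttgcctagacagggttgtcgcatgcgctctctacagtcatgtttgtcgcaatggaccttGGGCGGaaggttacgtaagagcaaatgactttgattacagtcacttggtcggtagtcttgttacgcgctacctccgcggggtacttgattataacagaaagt

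A RefSeq promoter was found for 6 of the 8 genes, and Akr1b3 and Gnpnat1 had none in the table. The GC box, searched on both strands with overlapping matches counted, occurred in each of the 6, with 5 matches in Pgm3 and Uap1, 4 in Gfpt1, 2 in Sord and Gfpt2 and 1 in Ogt. It occurred in 32.9% of 27025 gene promoters of this length. CCACG was found in Gfpt1 (2 matches), Sord (1) and Uap1 (1) and in 28.2% of all. The XBP1 element TGACGTGG matched none of the 6 and 0.503% of all, and the E-box CACGTG none of the 6 and 6.05% of all. TATAAA was likewise absent from the 6 windows (13% of all). GC content was 72.0% for Gfpt1, 71.6% for Pgm3, 67.2% for Uap1, 66.8% for Sord, 57.6% for Gfpt2 and 49.6% for Ogt, against a median of 52.0% over all promoters. These matches describe the letters only.

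Genes around the 2 pathways were read from 9 lists, of which 90 of 94 genes were tested. Apart from Sord in ApoE KO HFD against Wt CD, edgeR called none of the 90 in any of the 6 comparisons. At an unadjusted p under 0.05 there were 13 in that comparison (14.2% of all genes), 0 in ApoE KO HFD against ApoE KO CD (1.53%), 9 in Wt HFD against Wt CD (12.9%), 15 in ApoE KO CD against Wt CD (15.9%), 5 in ApoE KO HFD against Wt HFD (2.83%) and 5 in the interaction (8.2%). In the 3 comparisons against Wt CD these counts are close to the share of all genes. DESeq2 called 2 in ApoE KO HFD against Wt CD (Sord and Slc2a1) and 3 in ApoE KO CD against Wt CD (Sord, Gfpt1 and Dnajc3), and 0 in the other 4 comparisons; over all genes it called 204 and 434 in those 2 comparisons.

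Downstream of Sord, fructose is phosphorylated by ketohexokinase. Its gene Khk averaged 2.78 ± 0.243 CPM in ApoE KO HFD and 2.31 ± 0.662 in ApoE KO CD (SD, n = 3 each), with a log2 fold change of 0.28 (SE 0.24, edgeR adjusted p = 1). In ApoE KO CD against Wt CD Khk had −0.56 (SE 0.24, adjusted p = 0.269), the opposite sign to Sord. Over the 10 tested genes of polyol and fructose handling the median log2 fold change was 0.01 in ApoE KO HFD against ApoE KO CD, against 0.01 over all genes. Akr1b8, another aldo-keto reductase of this list, was at 0.675 CPM or less in every library.

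Upstream, Slc2a1, a glucose transporter gene, averaged 6.58 ± 1.34 CPM in ApoE KO HFD and 5.36 ± 1.09 in ApoE KO CD (SD, n = 3 each), a log2 fold change of 0.30 (SE 0.22, edgeR adjusted p = 1). Against Wt CD, at 3.51 ± 0.985 CPM, Slc2a1 had 0.90 (SE 0.23, adjusted p = 0.112) in ApoE KO HFD and 0.60 (SE 0.23, adjusted p = 0.211) in ApoE KO CD. In ApoE KO HFD against ApoE KO CD, Pfkfb1, which makes a regulator of glycolysis, had −0.48 (SE 0.36, adjusted p = 1). Of 11 glucose supply genes 8 lay above 0 in that comparison, with a median of 0.04. The glucose-responsive list of 12 genes had a median of −0.03 in it. There Mlxip, a glucose-sensing factor, was at −0.15 (SE 0.13) and G6pdx, of the pentose phosphate pathway, at 0.36 (SE 0.39).

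In ApoE KO HFD against ApoE KO CD the 9 salvage and breakdown genes had a median of 0.04, with Gne, which starts sialic acid synthesis, at 0.10 (SE 0.18) and Renbp at 0.59 (SE 0.70). The 17 tested genes of UDP-GlcNAc use had a median of 0.04. Mgat1, which starts complex N-glycans, had 0.17 (SE 0.12) and Alg14, a subunit of the transferase that adds the second GlcNAc of the lipid-linked glycan, −0.45 (SE 0.31). Uap1l1, a relative of Uap1, was near 1 CPM and had −0.16 (SE 0.36), and Eogt, which adds O-GlcNAc to secreted proteins, 0.25 (SE 0.20). For each of these genes the edgeR adjusted p was 1 in that comparison. Mgat1 had −0.38 (SE 0.14, adjusted p = 0.273, no overlap) in Wt HFD against Wt CD and an interaction of 0.55 (SE 0.18, adjusted p = 0.439).

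The unfolded protein response list holds Xbp1 and, among others, Ern1, Atf4, Ddit3 and Atf6, so it is not a list of XBP1 targets alone. It had 12 of 15 genes above 0 in ApoE KO CD against Wt CD, with a median of 0.27 against −0.01 over all genes. In ApoE KO HFD against ApoE KO CD 3 of 15 lay above 0, with a median of −0.14 against 0.01; both comparisons use the ApoE KO CD libraries, with opposite sign. In Wt HFD against Wt CD 11 of 15 lay above 0 (median 0.09) and in ApoE KO HFD against Wt CD 10 of 15 (median 0.15). Dnajc3, a chaperone cofactor, averaged 18.5 ± 0.946 CPM in ApoE KO HFD, 19.9 ± 1.00 in Wt HFD, 22.8 ± 3.94 in ApoE KO CD and 15.4 ± 2.23 in Wt CD (SD, n = 3, 2, 3 and 3). Its log2 fold change in ApoE KO CD against Wt CD was 0.56 (SE 0.15, edgeR adjusted p = 0.0829). Hyou1, another chaperone, had −0.26 (SE 0.17, adjusted p = 1) in ApoE KO HFD against ApoE KO CD. Osmotic response genes, which include carriers of other osmolytes, had a median of 0.03 in that comparison, with Slc38a2 at −0.34 (SE 0.18) and the inositol carrier Slc5a3 at −0.22 (SE 0.21), both with an adjusted p of 1.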

How the data were processed

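RNA was prepared with a Maxwell RSC simplyRNA kit and sequenced from SMART-Seq Stranded libraries, per the labels. Trimmomatic 0.39, STAR 2.7a and HTSeq 0.13.5 with GRCm38 (mm10) are named in the submitters' processing notes. The annotation release and strand setting are not given in the sources used here. The authors deposited whole-number read counts per gene, 1 file per library, with no normalization. Symbols, exons and positions came from GENCODE M21 (GRCm38), which matched 55154 of 55335 identifiers. Promoters came from RefSeq (GRCm38.p6).

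Counts were fitted with edgeR 4.0.16 in R 4.3.3: TMM factors, filterByExpr, 1 mean per group, robust quasi-likelihood F test, 11 libraries, 7 residual degrees of freedom. P-values are Benjamini-Hochberg adjusted over 16932 genes in each of 6 comparisons, and called means below 0.05 after adjustment. Intervals use the fit's t distribution. CPM are TMM-scaled unless called plain. Wt HFD replicate 3 was left out because its counts lie on the opposite strand. Alternatives used DESeq2 1.42.0, limma 3.58.1 (voom with sample weights), RLE factors, other filters and other sets of libraries. The fitting function was tested on simulated data.

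All 8 genes are named; of the other lists, the called genes and the 2 with the smallest p in ApoE KO HFD against ApoE KO CD. Pattern likeness took, per gene, the 3 protein-coding genes of mean log2 CPM of at least 3 with the highest Pearson r. Members, lists and ratios were chosen with earlier results of these data known. The labels do not say that replicates are separate animals, and the spread behind the p-values is that of libraries, which may be technical. Chi-square tests of replicate pairs (genes with at least 20 counts) gave 24.55 or more per degree of freedom, so all were counted as separate libraries.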

Additional observations from a re-analysis of the deposited data

Results flagged for a closer look

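Gfpt1 lay on opposite sides by diet under the 2 genotype labels on TMM-scaled CPM, with no difference that passed: every ApoE KO HFD library (11.3 to 12.5 CPM) lay below every ApoE KO CD library (12.7 to 13.4), and both Wt HFD libraries (10.4 and 11.4) lay above every Wt CD library (5.86 to 10.1). The interaction was −0.59 on the log2 scale and did not pass by edgeR's quasi-likelihood test (adjusted p = 0.559). Ogt lay on opposite sides by genotype label on the 2 diets, again with no difference that passed: the ApoE KO HFD libraries (38.7 to 41.3 CPM) lay below Wt HFD (43.3 and 45.3), and the ApoE KO CD libraries (38.9 to 39.6) above Wt CD (29.4 to 37.9). Its interaction was −0.43 (edgeR adjusted p = 0.573). On plain CPM Gfpt1 overlapped between ApoE KO HFD (9.16 to 14.3) and ApoE KO CD (11.3 to 15.8). It also overlapped between Wt HFD (9.59 and 11.1) and Wt CD (5.60 to 10.9), and Ogt overlapped on both diets. Since Apoe went against the labels on chow, the direction under each label is subject to that doubt.

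Wt HFD replicate 3, which enters only the alternative with all 12 libraries, had plain CPM above every Wt CD library for 4 of the genes: 5.20 for Gfpt2, 18.6 for Gnpnat1, 5.20 for Pgm3 and 10.4 for Uap1. Its counts lie on the opposite strand, where Gnpnat1 overlaps Styx and Pgm3 overlaps Dop1a, and they rest on 7 to 25 counts per gene.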

How the results depend on the processing

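The number of genes called depended strongly on the method, while most values of the 8 genes kept their direction and side of the threshold (873 of their recomputed values; 49 reversed, 11 lost a call and 13 gained one). The cause of the changes was not tested, except that fits on fewer libraries or other gene sets differ by construction. Genes called in ApoE KO HFD against Wt CD numbered 26 in the reported fit, 204 with DESeq2, 296 with no filter, 12 with only the groups compared, 0 with all 12 libraries, 14 with the replicate block and 0 to 1304 when 1 library was left out. For ApoE KO HFD against ApoE KO CD they numbered 12, then 20 with DESeq2, 26 with no filter, 1 with all 12 libraries, 23 with voom and 6 to 14 with 1 library left out. For Wt HFD against Wt CD they numbered 35, then 168 with DESeq2, 272 with no filter, 9 with only the groups compared, 1 with all 12 libraries, 19 with the block and 4 to 1019 with 1 left out. For ApoE KO CD against Wt CD they numbered 86, then 434 with DESeq2, 475 with no filter, 38 with only the groups compared, 3 with all 12 libraries and 37 to 1801 with 1 left out. For ApoE KO HFD against Wt HFD they numbered 8, then 28 with DESeq2, 49 with no filter, 24 with only the groups compared, 1 with all 12 libraries, 39 with voom and 4 to 20 with 1 left out. For the interaction they numbered 37, then 92 with DESeq2, 105 with no filter, 8 with all 12 libraries, 72 with voom and 20 to 285 with 1 left out. The highest counts against Wt CD came without Wt CD replicate 2.

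Of the 8 genes, 1 was called in ApoE KO HFD against Wt CD, but 0 with only the groups compared, 0 with all 12 libraries, 0 with the replicate block and 0 to 3 with 1 library left out. In Wt HFD against Wt CD 0 were called, 1 with no filter (272 genes called in all) and 0 to 3 with 1 left out. In ApoE KO CD against Wt CD 0 were called, 2 with DESeq2 (434 in all), 2 with no filter (475 in all) and 0 to 3 with 1 left out. In each of these comparisons the 3 came only without Wt CD replicate 2. That fit called 1304 genes in ApoE KO HFD, 1019 in Wt HFD and 1801 in ApoE KO CD, each against Wt CD. Replicate numbers gave no clear sign of pairing: of 15 same-number pairs, 1 had a correlation over 0.1 (range −0.18 to 0.19). A pair of different numbers, ApoE KO CD replicate 1 and ApoE KO HFD replicate 3, had 0.165. The correlations are of deviations from group means, which cancel within a small group, so this check is weak.

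With no filter Akr1b3 was 0.06 and Gfpt2 0.01 in ApoE KO HFD against Wt CD, and 0.10 and 0.08 in Wt HFD against Wt CD, where Akr1b3 was 0.07 with voom and Gfpt2 0.47 with all 12 libraries. In ApoE KO CD against Wt CD Akr1b3 was 0 with RLE factors and with DESeq2, and −0.02 with 50 counts in 3 libraries and with only the groups compared. In ApoE KO HFD against Wt HFD Akr1b3 was 0.22 with all 12 libraries and 0.02 with the block, and Pgm3 −0.01 and Ogt 0.28 with all 12. In the interaction Akr1b3 was 0.02 with 50 counts and 0.22 with all 12, and Ogt 0.02 with all 12, against −0.43 in the reported fit. With 1 library left out Akr1b3 ranged over −0.29 to 0.21, −0.30 to 0.08, −0.14 to 0.22, −0.11 to 0.25, −0.27 to 0.11 and −0.28 to 0.11 in the 6 comparisons, in the order ApoE KO HFD against Wt CD, ApoE KO HFD against ApoE KO CD, Wt HFD against Wt CD, ApoE KO CD against Wt CD, ApoE KO HFD against Wt HFD and interaction. Gfpt2 ranged over −0.38 to 0.13 in ApoE KO HFD against Wt CD, −0.29 to 0.26 in Wt HFD against Wt CD and −0.33 to 0.26 in ApoE KO HFD against Wt HFD. Ogt ranged over 0 to 0.03 in ApoE KO HFD against ApoE KO CD. Pgm3 ranged over −0.10 to 0.25 in ApoE KO HFD against Wt HFD and −0.42 to 0.01 in the interaction. The Gfpt1 to Gfpt2 ratio ranged over −0.44 to 0.19, an alternative chosen after seeing the data.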
